A study of Homo sapiens with 31 samples.

Results

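The genes of cholesterol synthesis and of its control by the sterol regulatory element binding proteins (SREBPs) were followed in Caco-2, a cell line from a human colorectal tumour whose confluent monolayer resembles small-intestinal enterocytes. Of 33 listed genes 31 had a probe set whose annotation named that gene alone, and where several did, the brightest on average was taken. These 31 members stood among 22395 genes tested. CYP51A1, whose probe set names several genes, and FDFT1 were not analysed here. The cells were cultured for 21 days, either in a microfluidic gut-on-chip perfused at 100 µL/h or without flow on Transwell inserts. They were then exposed for 6 h. Chip cultures received 80 µg/mL zinc oxide (ZnO) nanomaterial, its nanomaterial-free ZnO-control medium, 100 µg/mL titanium dioxide (TiO2) nanomaterial or its nanomaterial-free TiO2-control medium. Transwell cultures received 10 µg/mL ZnO, ZnO-control medium, 50 µg/mL TiO2 or TiO2-control medium. The doses differed between the systems because they had been modelled to deposit equally, per the labels. All groups were 1 cell line, used at passages 29 to 45. Chip flow was stopped during exposure, after about 42 min of filling. Each group had 4 arrays except Transwell TiO2, which had 3. The labels do not say whether replicates were separate cultures, so the p-values measure the spread between these arrays, which may be technical.

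Cells build cholesterol from acetyl-CoA. The mevalonate pathway yields isoprenoid diphosphates, pairs of which are joined into squalene, and squalene is then oxidised, cyclised to lanosterol and trimmed to cholesterol. SREBP precursors sit in the endoplasmic reticulum bound to the escort protein SCAP. When sterols are plentiful INSIG proteins hold that complex in place, and when sterols are scarce SCAP carries it to the Golgi, where proteases release the active transcription factor. SREBP-2 mainly drives cholesterol synthesis and SREBP-1c mainly drives fatty acid synthesis. Enterocytes also absorb cholesterol from the gut lumen through the transporter NPC1L1.

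Values are deposited RMA expression values on the log2 scale, so a difference of 1 is a doubling of the array signal. They ran from 0.3615 to 13.4956 in the whole table, with array medians of 3.24 to 3.33, and every member lay above the array median on all 31 arrays. Of 12 Caco-2 and enterocyte markers 11 were measured, and all 11 lay above the array medians on every array, with list means of 9.28 to 9.70 in the chip and 9.40 to 9.60 on Transwell. Single markers differed in both directions: VIL1 averaged 10.33 in the chip and 11.08 on Transwell, CDX2 7.53 and 8.32, KRT20 8.86 and 7.98, and KRT8 6.73 and 5.99. Markers of other cell types above the medians on every array numbered 2 of 5 for fibroblasts (COL1A1 and LUM), 0 of 3 for endothelium, 3 of 5 for immune cells (CD68, CD14 and LYZ) and 0 of 3 for smooth muscle. The fibroblast list means were 3.69 to 4.50 in the chip and 4.26 to 4.47 on Transwell, and the immune list means were 5.38 to 5.91 in the chip and 5.06 to 5.61 on Transwell. Their part in the results below was not tested. Among the TiO2-set arrays of the chip a pair stood apart. On the second principal component (7.76% of the variance) chip TiO2 replicate 4 lay at -15.4, with the other chip TiO2 arrays at 9.33 to 11.8, and chip TiO2-control replicate 4 lay at -9.37, with the other chip TiO2-controls at 4.09 to 7.04. On the third component (4.45%) chip TiO2 replicate 4 lay at -14.0, near the other chip TiO2-controls (-19.4 to -14.9). TiO2-control replicate 4 had 7.81 there, a positive score like those of the remaining TiO2-exposed chips (16.7 to 20.1). TiO2-control replicate 4 was the lowest array of its group for 20 of the 31 members (64.5%) and for 24.9% of all genes. On the third component this pair went against its labels. The labels were used as given, and whether those of the pair were exchanged was not tested. Where leaving out both changed calls among the members, the count or value without them is given. The pair was picked on these same data, so p-values without it do not account for that choice. Chip ZnO replicate 1 also lay apart, at 53.5 on the first component (42.4%), with its group at 36.4 to 41.8, and at -24.5 on the third, with its group at 4.27 to 25.5.

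The first comparison set chip cultures against Transwell cultures over both control media, and members differed in both directions. A member is said to have passed when its limma adjusted p was below 0.05. In the chip 8 of 31 members were higher and 11 were lower, whereas 14.6% of all genes were higher and 18.9% lower. The members that passed thus made up 61.3%, against 33.5% of all genes. All genes included dim ones, whereas every member lay above the array medians. A share among equally bright genes is not given, here or for the later calls. The median member difference was 0.01 and that of all genes -0.00. INSIG1, which retains the SREBP-SCAP complex, rose 2.21-fold in the chip, and its paralog INSIG2 fell to 0.611 of the Transwell level. NPC1L1, the cholesterol uptake transporter, rose 2.09-fold. MYLIP, a sterol-induced ubiquitin ligase that marks lipoprotein receptors for degradation, fell to 0.510 of the Transwell level. In bulk RNA, a lower value from fewer expressing cells and one from less RNA per cell cannot be told apart. Leaving out both arrays numbered 4 gave 10 higher and 11 lower members (34.4% of all genes passed).

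**Figure D1:**
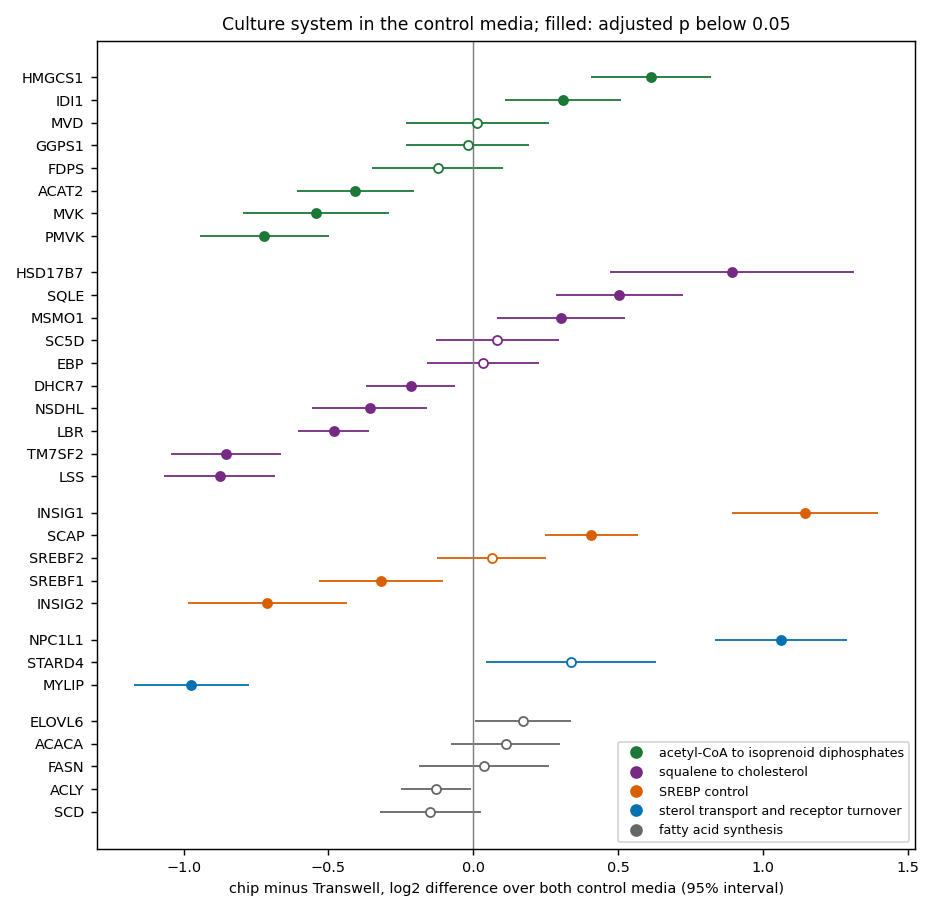
Difference between chip and Transwell in the control media for the 31 members, grouped by role (log2 difference with 95% interval; filled points passed at a limma adjusted p below 0.05). INSIG1 (1.14) and NPC1L1 (1.06) lie farthest right, MYLIP (-0.97), LSS (-0.88) and TM7SF2 (-0.85) farthest left, and 0 of the 5 fatty acid synthesis genes passed.

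Among the 8 genes that lead to isoprenoid diphosphates 2 were higher in the chip, 3 were lower and 3 did not pass. HMGCS1, the cytosolic HMG-CoA synthase, was the higher one with the smallest p. HMGCS1 read 10.68, 10.72, 11.03 and 10.58 on the chip ZnO-control arrays and 11.09, 11.26, 11.14 and 10.63 on the chip TiO2-control arrays, against 9.95, 9.83, 10.12 and 10.03 on the Transwell ZnO-control arrays and 10.55, 10.62, 10.45 and 10.68 on the Transwell TiO2-control arrays. The lowest chip arrays (10.58 and 10.63) lay inside the Transwell TiO2-control range, and the difference was 0.61 ± 0.10 (SE; adjusted p = 1.5e-05). IDI1, the isopentenyl diphosphate isomerase, rose by 0.31 ± 0.10 (SE; adjusted p = 0.0141). The 3 lower genes were PMVK, MVK and ACAT2. For PMVK the chip ZnO-control arrays gave 6.45, 6.83, 6.62 and 6.60 and the chip TiO2-control arrays 6.50, 6.74, 6.48 and 6.49, while the Transwell arrays gave 7.19, 7.52, 7.29 and 7.46 in ZnO-control and 7.24, 7.12, 7.31 and 7.34 in TiO2-control medium. PMVK, the phosphomevalonate kinase, read below every Transwell control array on all 8 chip control arrays, a difference of -0.72 ± 0.11 (SE; adjusted p = 3.89e-06). MVK, the mevalonate kinase that acts just before it, fell by 0.54 ± 0.12 (SE; adjusted p = 0.000738), and ACAT2, the acetoacetyl-CoA thiolase that opens the pathway, fell by 0.41 ± 0.10 (SE; adjusted p = 0.00147). MVD, FDPS and GGPS1, the decarboxylase and both prenyl diphosphate synthases that follow, differed by 0.01, -0.12 and -0.02, with 95% intervals lying within -0.35 to 0.26. FDPS has pseudogene copies, so its probe set value is uncertain.

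Among the 10 genes between squalene and cholesterol 3 were higher, 5 were lower and 2 did not pass. Both enzymes that can reduce the sterol ring after demethylation, TM7SF2 and LBR, fell, and so did LSS, the lanosterol synthase that closes the ring. LSS read 7.23, 6.80, 7.24 and 6.71 on the chip ZnO-control arrays and 7.44, 7.29, 7.04 and 7.35 on the chip TiO2-control arrays, against 7.76, 7.62, 8.04 and 7.69 on the Transwell ZnO-control arrays and 7.98, 8.28, 8.31 and 8.41 on the Transwell TiO2-control arrays. No chip array reached the lowest Transwell array, and LSS differed by -0.88 ± 0.09 (SE; adjusted p = 1.17e-08). For TM7SF2 the chip ZnO-control arrays gave 4.22, 4.83, 5.09 and 4.74 and the chip TiO2-control arrays 4.86, 4.88, 5.08 and 5.21, while the Transwell arrays gave 5.51, 5.64, 5.71 and 5.79 in ZnO-control and 5.62, 5.93, 5.75 and 5.78 in TiO2-control medium. TM7SF2 was again separated without overlap, at -0.85 ± 0.09 (SE; adjusted p = 1.48e-08). LBR read 8.68, 8.69, 8.66 and 8.52 on the chip ZnO-control arrays and 8.78, 8.62, 8.86 and 8.75 on the chip TiO2-control arrays, against 9.23, 9.18, 9.23 and 9.08 on the Transwell ZnO-control arrays and 9.18, 9.19, 9.13 and 9.20 on the Transwell TiO2-control arrays. LBR, which also anchors chromatin at the nuclear lamina, differed by -0.48 ± 0.06 (SE; adjusted p = 1.48e-07), also with no overlap. NSDHL and DHCR7, a decarboxylating dehydrogenase and the last reductase of the pathway, fell by 0.36 and 0.22. The DHCR7 difference was -0.16 and did not pass without both arrays numbered 4 (adjusted p = 0.0661). On the higher side stood SQLE, the squalene epoxidase, at 0.50 ± 0.11 (SE; adjusted p = 0.000366), MSMO1, the sterol methyl oxidase, at 0.30 ± 0.11 (SE; adjusted p = 0.0294), and HSD17B7, the keto reductase of the same demethylation steps, at 0.89 ± 0.21 (SE; adjusted p = 0.000866). HSD17B7 has a near-identical pseudogene copy, so its value is uncertain. EBP, the sterol isomerase, and SC5D, the desaturase, did not pass, at 0.03 (95% interval -0.16 to 0.23) and 0.08 (-0.13 to 0.30).

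The 5 control genes moved in both directions, with 2 higher, 2 lower and 1 not past the threshold. For INSIG1 the chip ZnO-control arrays gave 10.95, 11.20, 11.06 and 10.94 and the chip TiO2-control arrays 11.34, 11.49, 11.37 and 10.55, while the Transwell arrays gave 9.29, 9.60, 9.65 and 9.66 in ZnO-control and 10.26, 10.56, 10.37 and 10.37 in TiO2-control medium. The chip was higher in both media, but chip TiO2-control replicate 4 (10.55) lay just below the highest Transwell array (10.56), and the difference was 1.14 ± 0.12 (SE; adjusted p = 1.48e-08). INSIG2 read 8.34, 7.67, 8.13 and 7.60 on the chip ZnO-control arrays and 8.90, 8.51, 8.39 and 7.89 on the chip TiO2-control arrays, against 8.83, 8.75, 8.77 and 8.54 on the Transwell ZnO-control arrays and 8.93, 9.22, 8.82 and 9.26 on the Transwell TiO2-control arrays. INSIG2 fell by 0.71 ± 0.13 (SE; adjusted p = 9.24e-05), with chip TiO2-control replicate 1 (8.90) inside the Transwell range. SCAP rose by 0.41 ± 0.08 (SE; adjusted p = 0.000122). SREBF1, which encodes SREBP-1, fell by 0.32 ± 0.10 (SE; adjusted p = 0.017), while SREBF2, which encodes SREBP-2, differed by 0.06 (95% interval -0.13 to 0.25; adjusted p = 0.673).

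Sterol transport and receptor turnover held the smallest p-values of all members. NPC1L1 read 7.60, 7.31, 8.20 and 7.52 on the chip ZnO-control arrays and 8.03, 8.22, 8.04 and 7.80 on the chip TiO2-control arrays, against 6.45, 6.59, 6.73 and 6.64 on the Transwell ZnO-control arrays and 6.90, 7.07, 6.63 and 7.21 on the Transwell TiO2-control arrays. All 8 chip arrays exceeded all 8 Transwell arrays, and NPC1L1 differed by 1.06 ± 0.11 (SE; adjusted p = 9.25e-09). For MYLIP the chip ZnO-control arrays gave 6.76, 6.87, 6.88 and 6.999 and the chip TiO2-control arrays 7.16, 6.44, 7.02 and 7.24, while the Transwell arrays gave 7.79, 7.92, 7.81 and 7.85 in ZnO-control and 7.997, 8.02, 7.83 and 7.94 in TiO2-control medium. The groups lay apart in the other direction, and MYLIP differed by -0.97 ± 0.10 (SE; adjusted p = 3.06e-09). STARD4, a soluble sterol carrier, was 0.34 (95% interval 0.05 to 0.63; adjusted p = 0.0703) with all arrays and 0.47 ± 0.12 (SE; adjusted p = 0.0019) without both arrays numbered 4. The 5 fatty acid synthesis genes, which SREBP-1c controls, gave 0 calls by limma with all arrays, with 2 of 5 at an unadjusted p under 0.05, against 40.2% of all genes. Those 2 passed without both arrays numbered 4, ELOVL6 at 0.22 ± 0.08 (SE; adjusted p = 0.0379) and ACLY at -0.15 ± 0.06 (SE; adjusted p = 0.0406). ELOVL6, a fatty acid elongase, differed by 0.17 with all arrays, ACACA, the acetyl-CoA carboxylase, by 0.11, FASN, the fatty acid synthase, by 0.04, ACLY, the ATP citrate lyase, by -0.13 and SCD, the stearoyl-CoA desaturase, by -0.15.

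**Figure D2:**
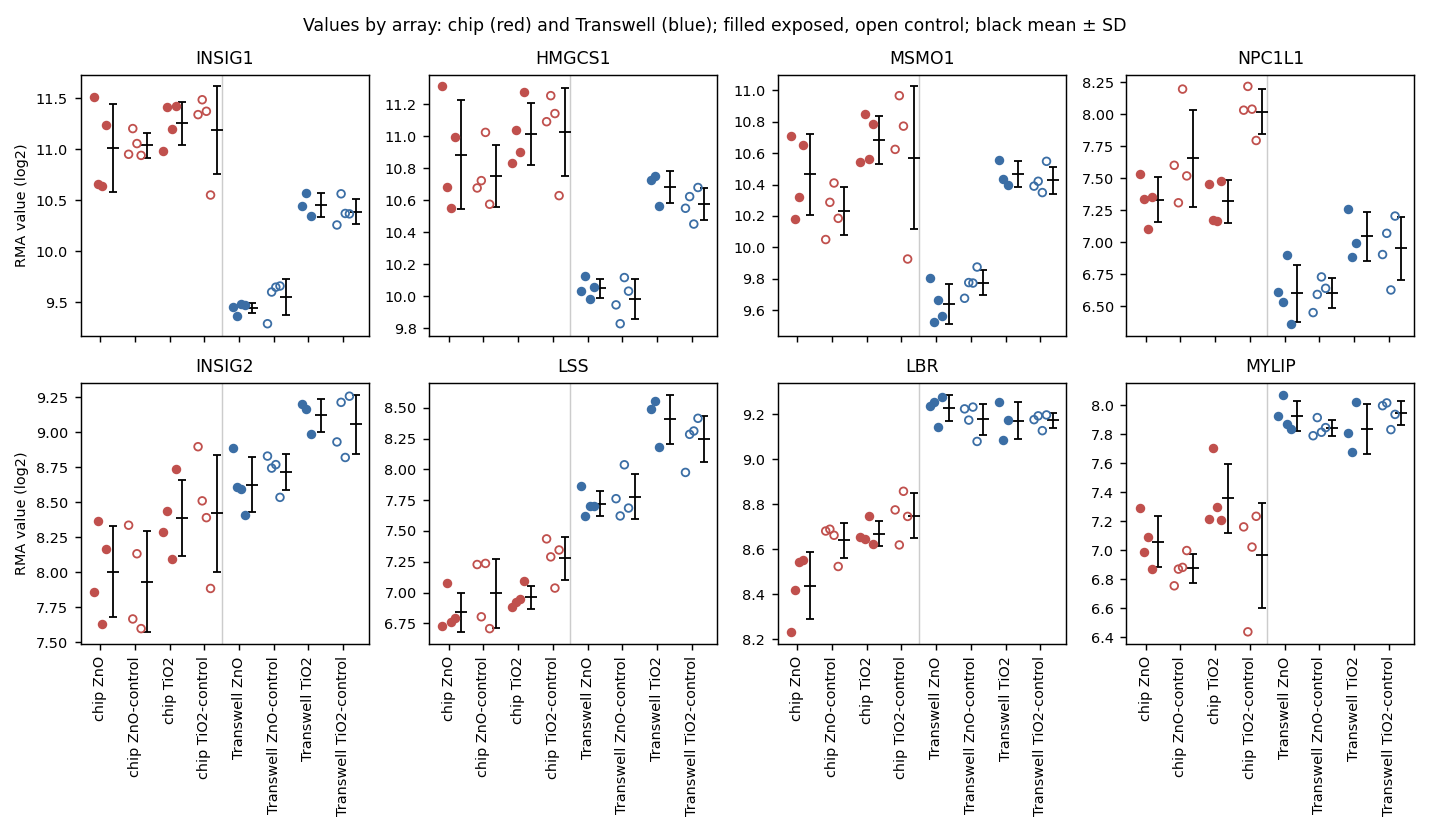
RMA values (log2) of 8 members on each of the 31 arrays, by group, with group mean and SD in black. INSIG1, HMGCS1, MSMO1 and NPC1L1 (upper row) are mostly higher in the chip (red) than on Transwell (blue), and INSIG2, LSS, LBR and MYLIP (lower row) are mostly lower. The Transwell ZnO and ZnO-control arrays lie below the Transwell TiO2 and TiO2-control arrays for INSIG1, HMGCS1 and MSMO1.

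The same contrast was read in each medium on separate arrays. In ZnO-control medium 7 members were higher and 10 lower in the chip (27.2% of all genes passed), in TiO2-control medium 5 and 7 (22.9%), after ZnO 8 and 9 (29.8%), and after TiO2 2 and 11 (18.2%). Without both arrays numbered 4 the counts were 8 and 5 in TiO2-control medium (23.6% of all genes passed) and 3 and 10 after TiO2 (18.1%). The lower members after TiO2 included 2 fatty acid synthesis genes, ACACA at -0.44 ± 0.14 (SE; adjusted p = 0.0259) and ACLY at -0.34 ± 0.09 (SE; adjusted p = 0.00782). INSIG1 was higher in all 4 media, at 1.57 after ZnO, 1.49 in ZnO-control, 0.80 after TiO2 and 0.80 in TiO2-control medium. PMVK, LSS, TM7SF2, LBR, INSIG2 and MYLIP were lower in all 4. Together these were 7 of 31 members, against 9.68% of all genes that passed the same way in all 4 media. The INSIG2 call in TiO2-control medium ended when both arrays numbered 4 were left out (-0.46; adjusted p = 0.0696). Over all media, the 16 chip arrays lay below all 15 Transwell arrays for PMVK, LSS, TM7SF2 and LBR, which are 4 of 31 members, against 3.8% of all genes. For 0 of 31 members did they lie above, against 2.91% of all genes. PMVK spanned 5.78 to 6.83 in the chip (median 6.50) and 7.12 to 7.56 on Transwell (median 7.31). LSS showed the largest of these differences after TiO2, at -1.45 ± 0.14 (SE; adjusted p = 1.91e-08). The chip differences of NPC1L1 were 0.73 after ZnO, 1.05 in ZnO-control, 0.27 after TiO2, where it did not pass (adjusted p = 0.321), and 1.07 in TiO2-control medium. Of the members called over both control media, ACAT2, IDI1, MSMO1, NSDHL, DHCR7, SREBF1 and SCAP did not pass in TiO2-control medium alone. There MSMO1 was at 0.145 (adjusted p = 0.578), NSDHL at -0.04 (adjusted p = 0.887) and SCAP at 0.22 (adjusted p = 0.171). SCAP was at 0.59 in ZnO-control medium. Without both arrays numbered 4 MSMO1 and IDI1 passed in TiO2-control medium, at 0.36 and 0.38. HSD17B7 was at -0.25 after TiO2 (adjusted p = 0.675).

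Neighbouring lipid lists were read in the same contrast over both control media, in which 33.5% of all genes passed. LXR is the oxysterol receptor that opposes SREBP-2 by promoting sterol export. Of 9 measured genes tied to LXR or to oxysterols, 4 were lower in the chip and 0 higher. They were SMPDL3A, LPCAT3, the cholesterol exporter ABCA1 and the oxysterol-forming CYP27A1, at -1.28, -0.87, -0.92 and -0.91. Of 9 genes of SREBP processing 2 were higher and 4 lower. PAQR3, a Golgi protein that tethers the SREBP-SCAP complex, rose by 1.01 ± 0.13 (SE; adjusted p = 2.87e-07), while the processing proteases MBTPS2 and MBTPS1 and the ubiquitin ligase RNF139 fell by 0.78, 0.31 and 0.42. Sterol uptake, esterification and transport had 4 higher and 4 lower of 11, and MTTP, which loads lipid onto lipoproteins, had the smallest p at -2.51 ± 0.26 (SE; adjusted p = 9.29e-09). GRAMD1B, a sterol transfer protein, fell by 2.34, and of both sterol esterifying enzymes SOAT2 fell by 1.10 and SOAT1 rose by 0.60. Other lipogenic genes had 3 higher and 4 lower of 12, led by the glycerol acyltransferase GPAM at -1.47, with ME1 at 0.64, ACSS2 at -0.59 and PNPLA3 at -1.02. Isoprenoid branch genes had 0 higher and 3 lower of 8 (PDSS1, PDSS2 and RABGGTA at -0.90, -0.37 and -0.33). Beside these, all 6 integrated stress response markers, all 3 metal response markers and 1 of 2 heat shock markers were higher in the chip, with ATF3 at 2.43 and MT1X at 1.57. The metal response differences reached 2.65 in TiO2-control medium and at most 0.89 in ZnO-control medium. Of 2 heat shock markers, 2 were higher in the chip in TiO2-control medium, whereas in ZnO-control medium 0 were higher and 1 was lower (-0.77). The part of these markers in the pathway's differences was not tested.

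The second comparison set the nanomaterial-free media against each other within each system, ZnO-control against TiO2-control. On Transwell 6 members were lower in ZnO-control medium and 0 were higher, against 3.76% of all genes lower and 2.88% higher. Of 31 members 25 lay below 0, against 51% of all genes, and the median member difference was -0.25, with -0.01 over all genes. INSIG1, MSMO1 and HMGCS1 fell by 0.84, 0.65 and 0.60, and the others were STARD4, SQLE and LSS. The arrays of a medium belong to 1 nanomaterial set, so the medium and anything else shared by that set of cultures cannot be told apart. On Transwell 2 of 3 metal response and 2 of 2 heat shock markers were higher in ZnO-control than in TiO2-control medium. MT1X was at 2.27 ± 0.17 (SE; adjusted p = 2.55e-09), MT2A at 1.19, HSPH1 at 1.12 and DNAJB1 at 0.87, while SLC30A1, at 0.22, did not pass. Of 6 integrated stress response markers 2 passed, CHAC1 at 0.90 and TRIB3 at -0.82. In the chip the same contrast passed 0 of 3 metal response markers (0.07 to 0.33) and 0 of 2 heat shock markers (-0.33 and -0.28). The part of these markers was not tested. Of the neighbouring lipid lists, genes tied to LXR or oxysterols had 0 higher and 1 lower (ABCA1, -0.70), SREBP processing 2 and 0 (SAR1B, 0.48, and RNF139, 0.49), sterol transport 0 and 0, lipogenic genes 1 and 2 (GPAM, 0.98, with ACSS2, -0.47, and PNPLA3, -0.72) and isoprenoid genes 2 and 0 (NUS1, 0.43, and PDSS1, 0.62).

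INSIG1 read 9.29, 9.60, 9.65 and 9.66 in ZnO-control medium, against 10.26, 10.56, 10.37 and 10.37 in TiO2-control medium. The groups did not overlap, and the difference was -0.84 ± 0.17 (SE; adjusted p = 0.00313). For MSMO1 the ZnO-control arrays gave 9.68, 9.78, 9.77 and 9.88 and the TiO2-control arrays 10.39, 10.42, 10.35 and 10.55. MSMO1 did not overlap either, at -0.65 ± 0.15 (SE; adjusted p = 0.00806). HMGCS1 read 9.95, 9.83, 10.12 and 10.03 in ZnO-control medium, against 10.55, 10.62, 10.45 and 10.68 in TiO2-control medium. The HMGCS1 difference was -0.60 ± 0.14 (SE; adjusted p = 0.00992), again with no overlap. For STARD4 the ZnO-control arrays gave 8.38, 8.60, 8.62 and 8.46 and the TiO2-control arrays 9.13, 9.28, 9.27 and 9.13. STARD4 was lower on all 4 ZnO-control arrays, a difference of -0.69 ± 0.20 (SE; adjusted p = 0.0365). SQLE read 8.94, 8.80, 9.07 and 8.70 in ZnO-control medium, against 9.40, 9.44, 9.38 and 9.37 in TiO2-control medium. SQLE also showed no overlap, at -0.52 ± 0.15 (SE; adjusted p = 0.0343). For LSS the ZnO-control arrays gave 7.76, 7.62, 8.04 and 7.69 and the TiO2-control arrays 7.98, 8.28, 8.31 and 8.41. LSS was the exception, since ZnO-control replicate 3 (8.04) exceeded TiO2-control replicate 1 (7.98), and its difference was -0.47 ± 0.13 (SE; adjusted p = 0.0282). INSIG1, MSMO1 and HMGCS1 passed with any 1 of the 8 arrays left out, whereas LSS did not pass in 6 of these 8 fits, SQLE in 7 and STARD4 in 8, so that 3 to 5 members were lower. These 3 did not pass either with each array centred on its median (adjusted p = 0.0568, 0.0776 and 0.0649).

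The exposed Transwell arrays of the same sets are separate arrays and gave the set contrast once more, with the exposures included. This comparison was added after the values had been seen. After ZnO against after TiO2, 9 members were lower and 0 higher, against 4.34% of all genes lower and 8.33% that passed in either direction. The 6 members above were among the 9, and 570 of all genes (2.55%) were lower in both contrasts. INSIG1 read 9.45, 9.37, 9.48 and 9.47 on the ZnO arrays, against 10.45, 10.57 and 10.34 on the TiO2 arrays. INSIG1 differed by -1.01 ± 0.19 (SE; adjusted p = 0.000873), with no overlap. The ZnO arrays of MSMO1 gave 9.81, 9.53, 9.66 and 9.56, and its TiO2 arrays gave 10.56, 10.44 and 10.40. MSMO1 was at -0.83 ± 0.16 (SE; adjusted p = 0.00171). LSS read 7.86, 7.62, 7.71 and 7.70 on the ZnO arrays, against 8.49, 8.55 and 8.18 on the TiO2 arrays. The LSS groups did not overlap here, and the difference was -0.69 ± 0.14 (SE; adjusted p = 0.00242). The ZnO arrays of HMGCS1 gave 10.03, 10.13, 9.98 and 10.06, and its TiO2 arrays gave 10.73, 10.75 and 10.57. SQLE read 8.83, 8.84, 8.81 and 8.92 on the ZnO arrays, against 9.46, 9.48 and 9.45 on the TiO2 arrays. Neither gene overlapped, and HMGCS1 and SQLE differed by -0.63 and -0.61 on the log2 scale (adjusted p = 0.00927 and 0.0169). The members added were MVD, ACLY and EBP. The ZnO arrays of MVD gave 8.73, 8.57, 8.61 and 8.70, and its TiO2 arrays gave 9.35, 9.45 and 9.07. ACLY read 10.09, 10.06, 9.98 and 9.88 on the ZnO arrays, against 10.32, 10.34 and 10.26 on the TiO2 arrays. The ZnO arrays of EBP gave 8.43, 8.47, 8.43 and 8.47, and its TiO2 arrays gave 8.88, 8.96 and 8.95. All 3 were separated, at -0.64 ± 0.18 (SE; adjusted p = 0.0281) for MVD, -0.30 ± 0.09 (SE; adjusted p = 0.0321) for ACLY and -0.48 ± 0.14 (SE; adjusted p = 0.0338) for EBP. STARD4 averaged 8.47 ± 0.10 after ZnO (SD, n = 4) and 9.16 ± 0.15 after TiO2 (SD, n = 3), a difference of -0.70 ± 0.22 (SE; adjusted p = 0.0447). With 1 of the 7 arrays left out, 3 to 7 members were lower. INSIG1, MSMO1 and LSS passed in all 7 fits, while HMGCS1 lost its call in 1, SQLE in 3, MVD and ACLY in 5 each and EBP in 7. All fits took 1 spread per gene from chip and Transwell arrays together, whereas the SD of EBP here was 0.023 after ZnO and 0.047 after TiO2. STARD4, which had the largest adjusted p of the 9, was not followed singly in these fits.

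Taking control and exposed arrays together, the 8 ZnO-set arrays of Transwell lay below all 7 TiO2-set arrays for 14 of 31 members, against 5.37% of all genes. They lay above for 0 members, against 5.09% of all genes. The 14 were ACAT2, HMGCS1, MVD and FDPS of the mevalonate steps, SQLE, MSMO1, EBP and DHCR7 of the sterol steps, SREBF2, SCAP and INSIG1 of the control genes, the carrier STARD4, and ACLY and SCD of fatty acid synthesis. INSIG1 spanned 9.29 to 9.66 (median 9.47) in the ZnO set and 10.26 to 10.57 (median 10.37) in the TiO2 set. SREBF2 spanned 7.86 to 8.15 in the ZnO set and 8.15 to 8.36 in the TiO2 set, so that the sets nearly touched.

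**Figure D3:**
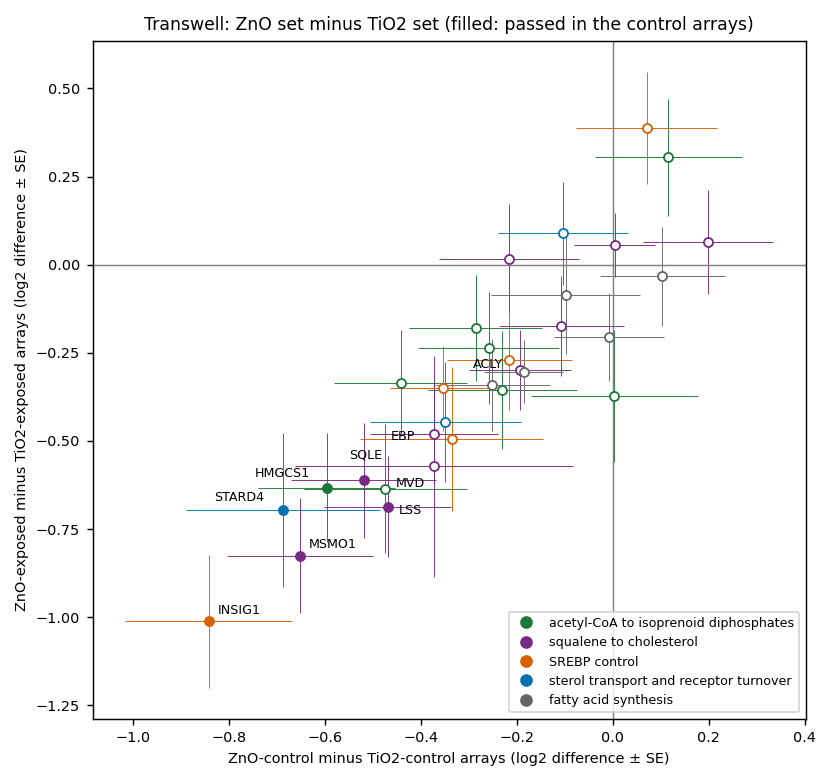
ZnO set minus TiO2 set on Transwell for the 31 members: control arrays on the horizontal axis, exposed arrays on the vertical axis (log2 difference ± SE; colours give the role, filled points passed in the control arrays). INSIG1 lies farthest below 0 on both axes (-0.84 and -1.01), and 25 of 31 members lie below 0 on each axis.

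In the chip 0 of 31 members passed in ZnO-control against TiO2-control medium by limma (0.058% of all genes passed), but 27 of 31 lay below 0 and the median was -0.28. At an unadjusted p under 0.05 there were 14 members, all lower, against 4.95% of all genes lower at that level. STARD4 read 8.64, 9.08, 8.98 and 8.81 in ZnO-control medium, against 9.81, 9.91, 9.61 and 8.74 in TiO2-control medium. ACAT2 read 7.56, 7.37, 7.75 and 7.40, against 8.30, 8.19, 8.17 and 7.51. In both genes TiO2-control replicate 4 lay with the ZnO-control arrays and below the rest of its own group. The differences were -0.64 (95% interval -1.05 to -0.22; adjusted p = 0.247) for STARD4 and -0.52 (95% interval -0.81 to -0.24; adjusted p = 0.153) for ACAT2. Without both arrays numbered 4, picked on these same data, 10 members were lower and 0 higher, against 0.991% of all genes lower. They were ACAT2, MVD, SQLE, MSMO1, NSDHL, HSD17B7, SC5D, DHCR7, STARD4 and SCD, with STARD4 at -0.90 ± 0.17 (SE; adjusted p = 0.00518) and ACAT2 at -0.70 ± 0.11 (SE; adjusted p = 0.001). Leaving out only TiO2-control replicate 4 gave 7 lower members, and the share of all genes in that fit is not given. INSIG1 differed between the control media by -0.15 (95% interval -0.51 to 0.21; adjusted p = 0.856) in the chip with all arrays. After ZnO against after TiO2 in the chip, 0 members passed (0.393% of all genes did), with 4 higher and 4 lower members at an unadjusted p under 0.05, against 11% of all genes in either direction. The test of the media difference between the systems gave 0 members (2.74% of all genes passed), with 3 at an unadjusted p under 0.05 (9.68%), against 15.9% of all genes. NSDHL, at -0.64 (95% interval -1.03 to -0.24; adjusted p = 0.0704), and INSIG1, at 0.69 (95% interval 0.19 to 1.20; adjusted p = 0.133), had the smallest p. Without both arrays numbered 4 NSDHL passed, at -0.76 ± 0.19 (SE; adjusted p = 0.0188).

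The promoters of 5 of the 6 members that fell on Transwell in ZnO-control medium are shown because these genes moved together, with that of SREBF2 for its sterol element. They were chosen after the values had been seen. Each is the RefSeq window of 250 bases before to 50 bases after the start, build GRCh38.p14, 5′ to 3′, and for HMGCS1 the first of 2 such windows. Capitals mark CCAAT, the core of the box bound by NF-Y, a factor known to act beside SREBPs, and CACNCCAC, the core of the sterol regulatory element, each on either strand.
INSIG1, chr7:155297628-155297927, plus strand: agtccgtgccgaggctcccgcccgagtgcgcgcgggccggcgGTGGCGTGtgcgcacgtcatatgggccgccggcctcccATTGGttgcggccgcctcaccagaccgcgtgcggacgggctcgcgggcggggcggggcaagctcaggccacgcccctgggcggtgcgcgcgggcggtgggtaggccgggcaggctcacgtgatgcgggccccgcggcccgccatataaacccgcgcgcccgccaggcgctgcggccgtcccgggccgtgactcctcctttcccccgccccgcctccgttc
MSMO1, chr4:165327419-165327718, plus strand: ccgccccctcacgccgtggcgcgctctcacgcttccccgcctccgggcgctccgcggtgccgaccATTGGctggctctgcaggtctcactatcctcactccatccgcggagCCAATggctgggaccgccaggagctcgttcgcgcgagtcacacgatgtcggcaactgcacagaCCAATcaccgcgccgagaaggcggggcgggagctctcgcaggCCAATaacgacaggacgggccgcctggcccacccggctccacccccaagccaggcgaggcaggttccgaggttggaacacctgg
HMGCS1, chr5:43313363-43313662, minus strand: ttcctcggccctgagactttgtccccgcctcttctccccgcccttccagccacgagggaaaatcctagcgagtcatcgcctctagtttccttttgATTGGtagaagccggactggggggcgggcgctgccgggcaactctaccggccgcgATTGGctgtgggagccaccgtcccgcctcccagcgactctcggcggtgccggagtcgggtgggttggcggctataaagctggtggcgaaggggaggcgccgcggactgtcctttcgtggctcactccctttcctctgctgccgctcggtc
LSS, chr21:46228725-46229024, minus strand: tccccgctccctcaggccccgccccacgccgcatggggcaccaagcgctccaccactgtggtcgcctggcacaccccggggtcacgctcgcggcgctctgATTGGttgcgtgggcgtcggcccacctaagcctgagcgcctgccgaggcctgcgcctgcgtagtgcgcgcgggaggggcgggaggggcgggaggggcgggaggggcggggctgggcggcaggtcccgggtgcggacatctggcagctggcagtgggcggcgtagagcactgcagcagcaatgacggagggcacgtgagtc
STARD4, chr5:111512486-111512785, minus strand: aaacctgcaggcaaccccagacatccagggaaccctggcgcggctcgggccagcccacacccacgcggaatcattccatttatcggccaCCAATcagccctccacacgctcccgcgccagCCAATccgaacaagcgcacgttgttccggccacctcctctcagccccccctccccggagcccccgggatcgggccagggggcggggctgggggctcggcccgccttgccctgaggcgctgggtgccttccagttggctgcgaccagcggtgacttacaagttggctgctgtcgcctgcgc
SREBF2, chr22:41832855-41833154, plus strand: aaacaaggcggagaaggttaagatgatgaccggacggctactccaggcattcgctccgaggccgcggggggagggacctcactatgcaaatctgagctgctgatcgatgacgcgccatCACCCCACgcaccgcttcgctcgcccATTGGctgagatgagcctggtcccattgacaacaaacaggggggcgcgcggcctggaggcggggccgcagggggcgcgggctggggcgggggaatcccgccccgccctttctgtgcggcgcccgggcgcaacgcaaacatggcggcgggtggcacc

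MSMO1 carried 4 CCAAT matches, HMGCS1 and STARD4 2 each, and INSIG1, LSS and SREBF2 1 each. The full letters TCACNCCAC, searched on both strands, matched in 1 of 28 members with a window, SREBF2, 133 bases before its start, against 1.15% of 27305 genes. The shorter CACNCCAC, which was added after the values had been seen and lies within the full letters, matched in 4 of 28 members (SC5D, SREBF2, INSIG1 and SCD), which is 14.3%, against 5.74% of genes. CCAAT was present in 19 of 28 (67.9%), against 35.7% of genes, and GGGCGG, the box of Sp1, in 24 of 28 (85.7%), against 44.6%. The E-box CACGTG occurred in 4 of 28 (14.3%), against 7.43%, and TGCNCNC, the core of the metal response element, in 15 of 28 (53.6%), against 55.2%. These shares describe letters in windows of 300 bases and were not tested. The genes compared were all 27305 with a window, however bright, and a share among genes as bright as the members is not given. ACAT2, SQLE and FASN had no window in the table used.

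Exposure to the nanomaterials gave 0 calls among the members in any system. For ZnO in the chip limma passed 0 of 31 members and 61 of 22395 genes (0.272%). At an unadjusted p under 0.05 there were 4 members, all lower, against 9.42% of all genes. These were PMVK at -0.42 (95% interval -0.73 to -0.10; adjusted p = 0.337), ACACA at -0.33, LBR at -0.20 and NPC1L1 at -0.33. The median member difference was 0.04, but -0.13 without ZnO replicate 1, with 0 members passing there too, and the members' 95% intervals lay between -0.73 and 0.71. On the same arrays the zinc exporter SLC30A1 rose by 0.79 ± 0.17 (SE; adjusted p = 0.0381) and the stress factor ATF3 by 1.04 ± 0.21 (SE; adjusted p = 0.0208), which were 1 of 3 metal response and 1 of 6 integrated stress response markers. Of 2 measured heat shock markers 1, HSPH1, rose by 0.77 ± 0.15 (SE; adjusted p = 0.0195). Of the 5 lipid lists, 0 genes passed. The smallest p-values belonged to LPCAT3, ERLIN2, OSBPL2, THRSP and PDSS1 in their lists, at -0.21, -0.23, 0.22, 0.51 and -0.57.

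The 5 control genes show the scatter behind these intervals. INSIG1 read 11.51, 10.66, 10.64 and 11.24 on the chip ZnO arrays, against 10.95, 11.20, 11.06 and 10.94 on the ZnO-control arrays. The ZnO arrays of INSIG2 gave 7.86, 8.36, 7.63 and 8.17, and its ZnO-control arrays 8.34, 7.67, 8.13 and 7.60. The groups overlapped for both, with differences of -0.03 (95% interval -0.38 to 0.33; adjusted p = 0.982) and 0.07 (95% interval -0.32 to 0.46; adjusted p = 0.95). SREBF1 read 6.18, 5.63, 5.65 and 5.70 on the chip ZnO arrays, against 6.16, 5.59, 5.73 and 6.02 on the ZnO-control arrays. The ZnO arrays of SREBF2 gave 8.71, 8.27, 7.90 and 7.98, and its ZnO-control arrays 8.30, 7.98, 8.38 and 8.17. ZnO replicate 1 was the highest array for SREBF2 and, within its group, for SREBF1, and the differences were -0.09 (95% interval -0.39 to 0.22; adjusted p = 0.911) and 0.01 (95% interval -0.26 to 0.28; adjusted p = 0.993). SCAP read 8.57, 8.53, 8.62 and 8.61 on the chip ZnO arrays, against 8.32, 8.54, 8.50 and 8.61 on the ZnO-control arrays. SCAP differed by 0.09 (95% interval -0.14 to 0.32; adjusted p = 0.871). The signs of SREBF1, SREBF2, INSIG1 and INSIG2 changed when single arrays were left out. ZnO replicate 1 was the highest array of its group for 16 of 31 members (51.6%), against 24.1% of all genes.

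For ZnO on Transwell 0 of 31 members passed (0% of all genes did), 0 had an unadjusted p under 0.05, against 3.73% of all genes, and the median was -0.04. The members' intervals lay between -0.56 and 0.63. For TiO2 on Transwell the counts were likewise 0 (0% of all genes passed) and 0, against 2.64% of all genes, with a median of 0.03 and intervals between -0.52 and 0.88. The tests of the difference between the systems gave 0 members for ZnO (0.00447% of all genes passed), with 2 at an unadjusted p under 0.05 (6.45%), against 6.01% of all genes. For TiO2 they gave 0 (0% passed), with 5 (16.1%), against 5.43%. PMVK had the smallest p for ZnO, at -0.52 (95% interval -0.96 to -0.07; adjusted p = 0.827), and NPC1L1 for TiO2, at -0.80 (95% interval -1.28 to -0.32; adjusted p = 0.762).

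For TiO2 in the chip 0 of 31 members passed with all arrays (0% of all genes did). The unadjusted p was under 0.05 for 10 members, 9 lower and 1 higher, against 8.92% of all genes, and the median was -0.15. NPC1L1 read 7.45, 7.18, 7.16 and 7.48 on the chip TiO2 arrays, against 8.03, 8.22, 8.04 and 7.80 on the TiO2-control arrays. The groups did not overlap, and NPC1L1 differed by -0.70 (95% interval -1.03 to -0.38; adjusted p = 0.199). The TiO2 arrays of ACACA gave 7.62, 7.41, 7.47 and 7.96, and its TiO2-control arrays 8.22, 8.001, 8.02 and 8.25. ACACA was separated too, at -0.51 (95% interval -0.77 to -0.24; adjusted p = 0.312). HSD17B7 read 5.78, 5.78, 5.93 and 6.96 on the chip TiO2 arrays, against 7.16, 7.68, 7.49 and 5.82 on the TiO2-control arrays. Here TiO2 replicate 4 lay near the other controls and TiO2-control replicate 4 among the other TiO2 arrays, and the difference was -0.93 (95% interval -1.52 to -0.33; adjusted p = 0.363). MYLIP, the 1 higher member, was at 0.39 (95% interval 0.11 to 0.67; adjusted p = 0.394). The arrays numbered 4 had been picked on these same data, and p-values without them do not account for that choice. Without both arrays numbered 4, 3 members were lower and 0 higher, against 0.21% of all genes lower. HSD17B7 was then at -1.62 ± 0.21 (SE; adjusted p = 0.00105), ACAT2 at -0.63 ± 0.12 (SE; adjusted p = 0.0198) and NPC1L1 at -0.83 ± 0.18 (SE; adjusted p = 0.0403), with 3 arrays per group. HSD17B7 also passed the test of the difference between the systems, at -1.85 ± 0.29 (SE; adjusted p = 0.0215). Leaving out TiO2-control replicate 4 alone gave HSD17B7 a pass (-1.33), and leaving out TiO2 replicate 4 alone gave ACACA one (-0.62).

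**Figure D4:**
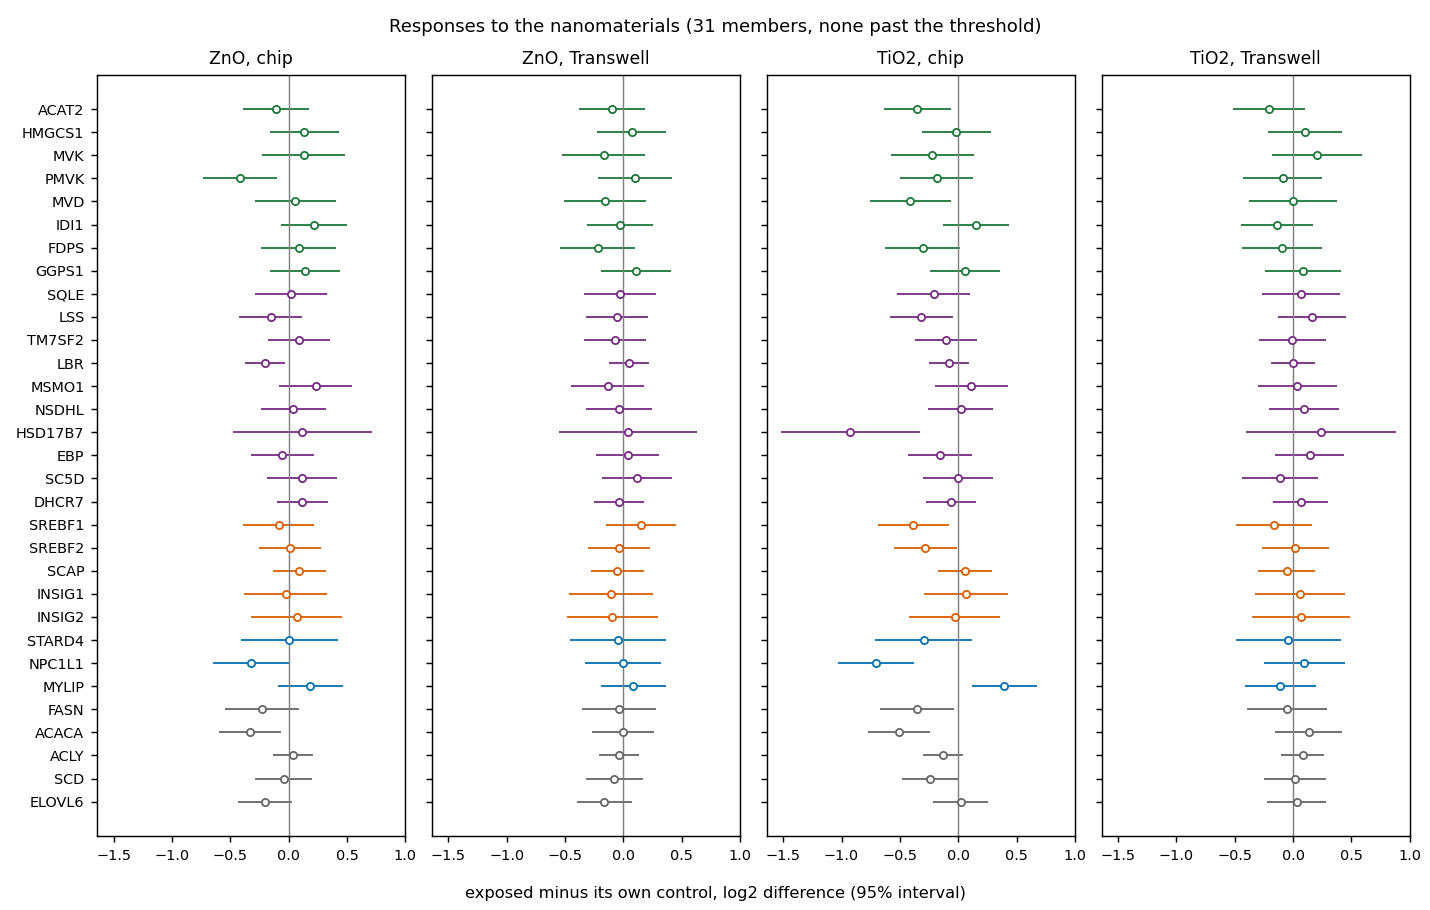
Exposed minus own control for the 31 members, with 95% intervals, for ZnO in the chip and on Transwell and TiO2 in the chip and on Transwell (log2 difference; colours give the role as in the chip against Transwell plot). The points spread more in the chip panels, HSD17B7 (-0.93) and NPC1L1 (-0.70) lie farthest from 0 for TiO2 in the chip, and 0 of 31 passed in each panel.

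Replicate arrays varied more in the chip than on Transwell for 30 of 31 members (96.8%), against 90.4% of the 8959 genes at least as bright as the dimmest member. The median within-group SD was 0.248 in the chip and 0.106 on Transwell, and the median ratio was 2.22, against 1.65 for those genes. HSD17B7 had the largest chip SD, at 0.578 in the chip and 0.204 on Transwell, followed by STARD4 (0.399 and 0.115), INSIG2 (0.348 and 0.169) and INSIG1 (0.328 and 0.125). ACLY was the exception, with 0.081 in the chip and 0.083 on Transwell. Without both arrays numbered 4 the SD was larger in the chip for 29 members (93.5%), against 84.4% of those genes, and the median ratio was 1.89, against 1.49. These values describe the spread and were not tested.

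**Figure D5:**
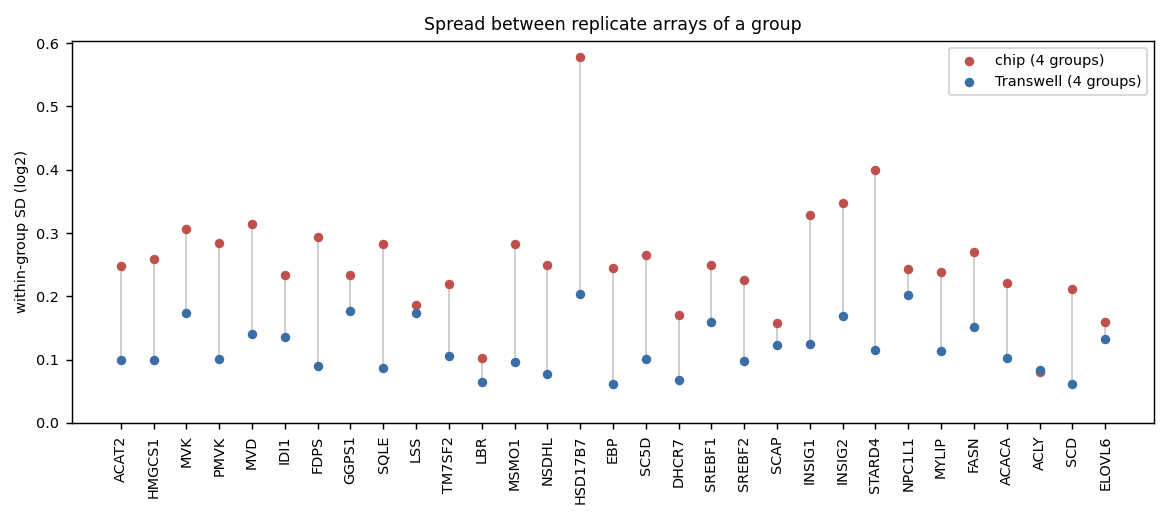
Within-group SD of each member (log2; root mean square over the 4 groups of a system) in the chip (red) and on Transwell (blue). The chip point lies above the Transwell point for 30 of 31 members, with HSD17B7 highest at 0.578.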

How the data were processed

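RNA of Caco-2 cultures was measured on Affymetrix whole-transcript arrays, 1 per sample. The authors deposited 1 table of log2 expression values, made with RMA per the submitters' processing notes (its version is not given in the sources used here). This method background-corrects, quantile-normalises and summarises probes per probe set, so a uniform shift of all genes is removed and low signals are compressed. Array data carry no read depth, and the number of arrays limits the precision. Of 53617 probe sets 23871 named 1 gene in the platform annotation, 1842 named several and 27904 named none here. Gene IDs of 22572 single-gene probe sets were matched to the current gene table. Per gene the probe set with the highest mean was used (632 genes had several), and no filter on low values was applied.

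limma 3.58.1 in R 4.3.3 fitted 1 mean per group over all 31 arrays (23 residual degrees of freedom), and two-sided p-values were adjusted by Benjamini-Hochberg over 22395 genes within each comparison. This fit used 1 spread per gene for chip and Transwell groups alike. The members' median replicate SD was 0.248 in the chip and 0.106 on Transwell. For members with such unequal spread, standard errors within Transwell are too large and those within the chip too small. Adjusted p-values and lost calls within a system share this limit. The fit was checked on simulated data. These had the same spread per gene in chip and Transwell groups, so the check does not cover the larger spread in the chip. Groups come from the labels. Replicate numbers did not pair samples: correlations of deviations ran from -0.126 to 0.059 over 15 pairs, with 0 over 0.1. Members and lists were chosen with earlier results of these data known. Full statistics were given for up to 8 passing members of smallest adjusted p per comparison, for SREBF1, SREBF2, SCAP, INSIG1 and INSIG2 under ZnO in the chip, and for up to 4 genes per neighbouring list. The comparisons of exposed arrays between sets and the media difference between systems were added after the values had been seen. Alternatives were an intensity-trend prior, array weights, a replicate block, fits on the compared groups alone, a filter on dim genes, all probe sets, median centring, renewed quantile normalisation, leaving out single arrays and leaving out both chip TiO2-set arrays numbered 4, which an earlier description of these data had named. Promoters were to be those of ZnO-responsive members with a sterol element. As no member passed there, others were shown.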

Additional observations from a re-analysis of the deposited data

Results flagged for a closer look

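In 20 of 217 groups of 4 member values, 1 array lay far from the other 3 by Dixon's criterion, which chance alone meets in about 1 of 20 groups. Of these, 10 fell on the chip TiO2-set arrays numbered 4. ACAT2 was high on chip TiO2 replicate 4, at 8.01, with the others at 7.55 to 7.61. ACAT2 was low on chip TiO2-control replicate 4, at 7.51, with the others at 8.17 to 8.30. ACLY was high on chip TiO2-control replicate 4, at 10.25, with the others at 10.04 to 10.07. HSD17B7 was high on chip TiO2 replicate 4, at 6.96, with the others at 5.78 to 5.93. INSIG1 was low on chip TiO2-control replicate 4, at 10.55, with the others at 11.34 to 11.49. MVD was low on chip TiO2-control replicate 4, at 8.82, with the others at 9.39 to 9.50. NSDHL was low on chip TiO2-control replicate 4, at 7.71, with the others at 8.21 to 8.23. PMVK was low on chip TiO2 replicate 4, at 5.84, with the others at 6.49 to 6.59. SCAP was low on chip TiO2 replicate 4, at 8.13, with the others at 8.64 to 8.70. SQLE was low on chip TiO2-control replicate 4, at 9.34, with the others at 9.96 to 10.07. Other chip arrays gave 3. LBR was low on chip ZnO-control replicate 4, at 8.52, with the others at 8.66 to 8.69. PMVK was high on chip TiO2-control replicate 2, at 6.74, with the others at 6.48 to 6.50. SREBF1 was high on chip ZnO replicate 1, at 6.18, with the others at 5.62 to 5.70. Transwell arrays gave 7. ACAT2 was low on Transwell ZnO replicate 2, at 7.62, with the others at 7.92 to 7.97. GGPS1 was high on Transwell ZnO-control replicate 2, at 6.67, with the others at 6.30 to 6.30. INSIG1 was low on Transwell ZnO-control replicate 1, at 9.29, with the others at 9.60 to 9.66. SC5D was high on Transwell ZnO replicate 3, at 9.76, with the others at 9.66 to 9.66. SC5D was low on Transwell ZnO-control replicate 1, at 9.35, with the others at 9.63 to 9.65. SREBF2 was high on Transwell ZnO-control replicate 3, at 8.15, with the others at 7.999 to 8.011. STARD4 was low on Transwell ZnO replicate 2, at 8.31, with the others at 8.51 to 8.53.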

How the results depend on the processing

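MYLIP, NPC1L1, LSS, INSIG1, TM7SF2, LBR, PMVK and HMGCS1 kept their direction and call for chip against Transwell in every alternative run, and exposure calls among members were 0 in every alternative with all arrays. The replicate block left 5 higher and 7 lower members for chip against Transwell (8 and 11 without it). It left 2 higher in TiO2-control medium, 5 lower after ZnO, and 1 higher and 6 lower after TiO2. Between the systems, however, the block compared the levels of replicate 1, not the group means. Over both control media the median member difference was 0.108 with the block and 0.014 without it. These counts therefore do not show how firm the calls between systems are. Within Transwell the block left 3 lower in ZnO-control medium and 5 lower after ZnO against TiO2. The samples share only a replicate number, and 3 of 15 pairs correlated best with their own number. With only the compared groups fitted, 2 members were higher in TiO2-control medium and 7 lower after TiO2. On Transwell the 6 and 9 lower members of the set contrasts became 3 and 5 with all probe sets tested or with median centring, and 10 and 15, with 1 higher after exposure, with array weights. They became 8 and 11 with the trend prior or with only the compared groups fitted, and 8 and 10 with the filter on dim genes. The media difference between systems called 1 lower member with the trend prior, array weights, the dim filter or without both arrays numbered 4. Without those arrays the calls were 3 lower for TiO2 in the chip, 1 lower for the TiO2 difference between systems (0.00447% of all genes passed) and 10 lower for the chip media. There were 8 higher for the system contrast in TiO2-control medium (23.6% passed), and 1 higher for the exposed chip sets (HSD17B7, 0.91, with 1.32% of all genes passing).

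With single arrays left out, lower members on Transwell ranged from 3 to 5 for the control media and 3 to 7 for the exposed sets. Chip against Transwell gave 2 to 7 higher members in TiO2-control medium, and 1 to 3 higher and 7 to 10 lower after TiO2. TiO2 in the chip gave 0 to 1 lower, the chip media 0 to 7 lower and the media difference 0 to 1 lower. For ZnO in the chip, signs turned for SREBF1 (-0.218 to 0.009), SREBF2 (-0.16 to 0.11), INSIG1 (-0.19 to 0.10) and INSIG2 (-0.049 to 0.205). SREBF2 was also at -0.084 with array weights and -0.007 after renewed quantile normalisation. Of 804 values of named members under the alternatives that left out no single array, 766 kept direction and call, 25 lost it, 11 gained it and 2 turned sign. The causes were not tested.

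Over all genes, ZnO in the chip called 96 genes with the trend prior, 103 with the dim filter, 25 with array weights, 35 with the block and 0 with its groups alone (61 as reported). Chip against Transwell called 4853 with the block (7495 as reported). Array weights called 2834 for the Transwell media and 3757 for the exposed sets (1486 and 1866 as reported). With only the compared groups fitted these were 1953 and 2759. The replicate SD of members (median 0.248 in the chip and 0.106 on Transwell) limits the differences that 4 arrays resolve.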
